A study of Mus musculus with 2 samples.

Results

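The genes described here are 10 genes of the contractile apparatus of smooth muscle, Acta2, Tagln, Myh11, Cnn1, Myl9, Mylk, Des, Lmod1, Tpm2 and Actg2, chosen by name out of 19169 genes in the table. All 10 were listed. They were followed in the mural cells of injured mouse muscle, that is pericytes and vascular smooth muscle cells, and in fibroadipogenic progenitors (FAPs), where they would mark myofibroblasts. Single-cell RNA was sequenced from the gastrocnemius muscle of male C57BL/6J mice on day 14 after an injection of cardiotoxin (CTX), a snake toxin that destroys myofibers. One library came from WT mice and the other from mice with a global knockout of Gsdme, a pore-forming protein of pyroptotic cell death. The study used 5 mice per genotype, and whether the cells of several mice were pooled into each library was not given in the sources used here. Age was likewise not given. With 1 library per genotype, genotype and library cannot be told apart, so no p-value is given. Every interval below is a 95% interval that covers counting error only.

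The library labelled WT held 6354 cells with a median of 5740 unique molecular identifiers (UMIs, each an RNA molecule counted once) per cell, and that labelled KO held 7078 cells with a median of 5962.5. The 2 libraries shared 4 cell barcodes. Gsdme RNA did not separate them. Its level was 5.03 counts per 1000000 UMIs (CPM) in the library labelled WT (4.39 to 5.73) and 4.65 in that labelled KO (4.08 to 5.29), so this RNA gave no check of the genotype labels. The genotypes are therefore given as labelled. A 5′ kit was used, and where the reads of Gsdme lie relative to the knocked-out sequence was not given in the sources used here.

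Smooth muscle contracts when the regulatory light chain of its myosin is phosphorylated by myosin light chain kinase and the myosin heads pull on actin filaments. The genes of this apparatus are switched on together by serum response factor and its partner myocardin, which act on a DNA element called the CArG box. In blood vessels they are high in the smooth muscle of arteries and arterioles and lower in capillary pericytes, which are marked by the potassium channel subunits Kcnj8 and Abcc9. Myofibroblasts, the contractile scar-forming fibroblasts, switch on part of the same program, above all Acta2.

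The promoters are shown because the element that is known to couple these genes can be read in them. The 250 bases before the RefSeq gene start (GRCm38.p6) were searched for 7 of the 10 genes. Tagln, Myh11 and Actg2 were not searched. The CArG box was searched on both strands as CC, then 6 letters that are each A or T, then GG, a form that reads the same on either strand. It was found in 1 of the 7 genes, Myl9, and in 1.47% of all 32851 promoter windows. When 1 of the 6 inner letters was allowed to be G or C, it was found in 2 of the 7, Acta2 and Myl9, and in 8.59% of all windows. The elements of both genes are printed in capitals, 5′ to 3′ on the strand of the gene. Both Acta2 elements are of the looser form and lie downstream of the GENCODE gene start, and whether they fall in an exon was not checked. Their first bases stand 84 and 34 bases before the RefSeq start.
Acta2, chr19:34255438-34255467 (GRCm38, minus strand): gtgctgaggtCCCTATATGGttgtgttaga
Acta2, chr19:34255388-34255417 (GRCm38, minus strand): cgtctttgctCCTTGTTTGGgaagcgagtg
Myl9, chr2:156775214-156775419 (GRCm38, plus strand): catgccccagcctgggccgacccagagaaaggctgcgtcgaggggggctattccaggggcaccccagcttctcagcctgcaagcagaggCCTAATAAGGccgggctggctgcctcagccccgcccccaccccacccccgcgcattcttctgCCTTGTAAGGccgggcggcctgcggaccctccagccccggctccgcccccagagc
The Myl9 stretch ends just before the GENCODE gene start, which lies upstream of the RefSeq start. Its exact element begins 161 bases before the RefSeq start, and its looser one 99 bases before it. A match is a description of the letters, and no match says only that they are not in this window.

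Mural-like cells numbered 511 in the library labelled WT (8.04% of its cells) and 580 in that labelled KO (8.19%). They formed 2 of 27 clusters drawn without the 10 genes, and were named from markers such as Rgs5, Notch3, Higd1b and Cox4i2. They held most of the UMIs of Acta2 (66.1% in WT and 60.7% in KO), Tagln (60.9% and 53.8%), Myh11 (85.8% and 84.8%), Myl9 (67.7% and 58.6%) and Lmod1 (86.0% and 84.3%). Levels are given in CPM over the UMIs of the summed cells, each gene compared only with itself, because the counts come from 5′ ends and are not scaled per length. Against all other cells together, 8 of the 9 genes with enough UMIs (20) were more than 2-fold higher in mural-like cells in WT, where 8.28% of all genes were. In KO it was 9 of 10 genes, against 10.5% of all genes. Des was the exception in both libraries. The median log2 ratio of the tested genes was 3.82 in WT and 3.23 in KO, and over all genes −0.02 and 0.06.

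The filament genes came first. Acta2, the smooth muscle alpha-actin (chr19:34241090-34255590, minus strand, GRCm38), stood at 605 CPM in mural-like cells of WT (585 to 626) and at 330 in KO (316 to 345). The next type was the MuSC-like cells, muscle stem cells and myoblasts, with 422 and 288, and 120 of its 785 and 121 of its 424 UMIs there were in 1 cell of each library. Mature-muscle-like cells of WT had 389 CPM, but 32 of those 34 UMIs were in 1 cell. The log2 ratio of mural-like over MuSC-like cells was thus small, 0.52 (0.41 to 0.63) in WT and 0.20 (0.05 to 0.35) in KO. Actg2, the enteric smooth muscle actin (chr6:83512905-83536265, minus strand), was close to the counting floor of 3 UMIs, with 10 UMIs in mural-like cells of WT and 12 in KO. Its highest level in KO was in Schwann-like cells, 22.7 CPM, but 16 of those 21 UMIs came from 1 cell. Acta2 and Actg2 transcripts shared 0 of the 2165 stretches of 31 bases in Acta2, so their reads can be told apart at that length. Tpm2, the beta-tropomyosin that lies along the actin filament (chr4:43514711-43523765, minus strand), was highest in mature-muscle-like cells (7708 and 8486 CPM), with mural-like cells next at 343 and 254.

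The motor genes were led by mural-like cells in both libraries. Myh11, the smooth muscle myosin heavy chain (chr16:14194535-14291372, minus strand), stood at 227 CPM in mural-like cells of WT (214 to 240) and 186 in KO (175 to 197). Red-cell-like barcodes followed with 58.5 and 26.4, and endothelial-like cells with 11.03 and 14.03. In MuSC-like cells, the type next in line for Acta2, Myh11 was at 3.23 and 3.39. The regulatory light chain gene Myl9 (chr2:156775420-156781658, plus strand) stood at 392 (376 to 409) and 289 (275 to 302), with Schwann-like cells next in WT at 74.99 and red-cell-like barcodes next in KO at 89.9. The kinase gene Mylk (chr16:34745210-35002420, plus strand) stood at 259 and 244, above tendon-like cells with 146 and 114. Its log2 ratio of mural-like over tendon-like cells was 0.82 (0.70 to 0.95) and 1.10 (0.96 to 1.24).

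The genes that bind or anchor the filaments were less alike. Tagln, the actin-bundling transgelin (chr9:45929619-45936058, minus strand), stood at 536 CPM in WT (517 to 556) and 396 in KO (381 to 412), again with MuSC-like cells next at 204 and 317. Lmod1, which seeds smooth muscle actin filaments (chr1:135324807-135368065, plus strand), stood at 42.9 and 28.8. The next types, red-cell-like barcodes in WT and NK-like cells in KO, had 7.31 and 7.97, both from very few UMIs. The log2 ratio of mural-like cells over them was 2.55 (0.68 to 5.61) in WT and 1.85 (−0.64 to 7.17) in KO. Cnn1, basic calponin (chr9:22099216-22109630, plus strand), was rare, with 27 UMIs in all mural-like cells of WT and 46 in KO, of which 18 came from 1 cell. Des, the intermediate filament desmin of all muscle lineages (chr1:75360329-75368579, plus strand), was highest in mature-muscle-like cells (1672 and 2207) and then in MuSC-like cells (1045 and 898). Mural-like cells came after both with 134 and 118. Tagln overlaps Pcsk7 and Gm48529 on the opposite strand, Mylk overlaps antisense genes such as E130310I04Rik, and Des overlaps Gm15179. Whether the counting used strand was not given in the sources used here, so reads of these partners may be mixed in.

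**Figure D1:**
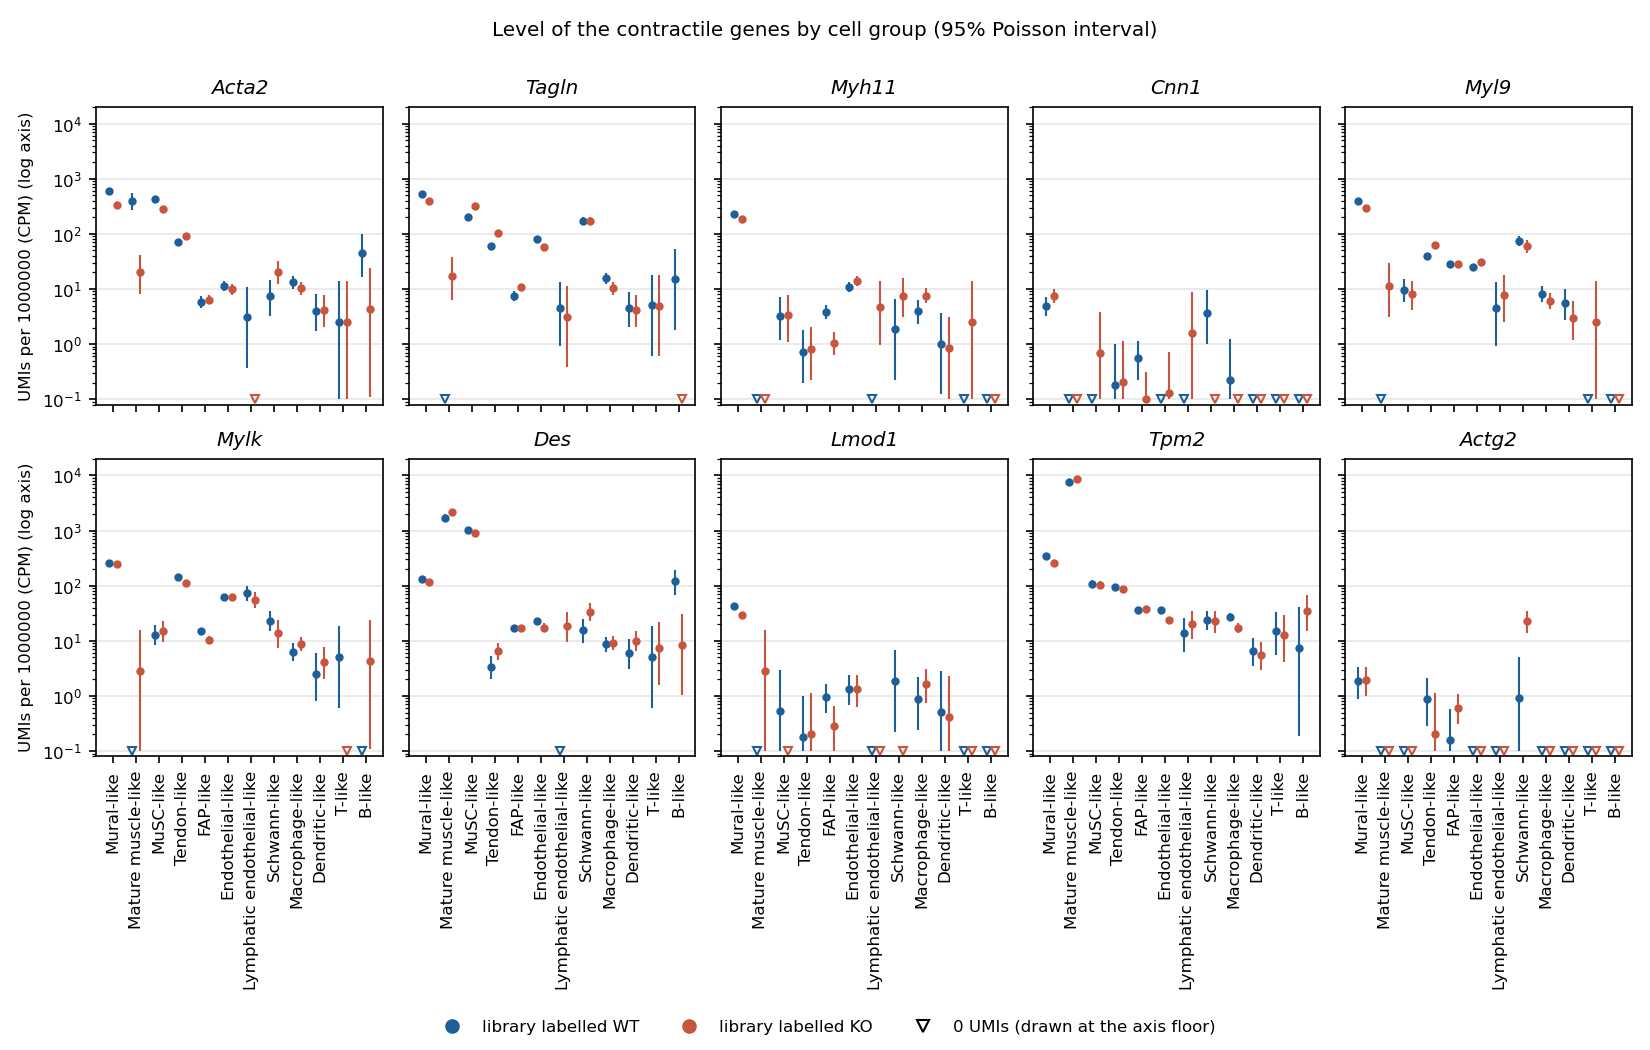
Level of each of the 10 genes (CPM, log axis) in 12 of the 16 cell types, in the library labelled WT and that labelled KO, with 95% counting intervals; open triangles mark types at 0 UMIs. Mural-like cells lead for 8 genes in WT and 7 in KO, mature-muscle-like cells for Des and Tpm2, and Schwann-like cells for Actg2 in KO; the KO point of Actg2 in Schwann-like cells rests mostly on 1 cell.

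The mural-like cells were clustered again without the 10 genes, Kcnj8 and Abcc9, and fell into 4 groups. Smooth-muscle-like cells (59 in WT and 71 in KO) had a median of 8813 and 7892 UMIs per cell. Pericyte-like cells (167 and 186) were led by Abcc9, Kcnj8, Higd1b and Rgs4 and were shallow, with medians of 1671 and 1597.5. Abcc9, Kcnj8 and Higd1b were among the markers used to name this group, so their lead is no separate evidence for the name. Mural-like cells with endothelial genes (239 and 283) had medians of 13427 and 13600, and those with MuSC genes (46 and 40) had medians of 16825.5 and 13366.5. Endothelial markers took 0.931% and 0.982% of the UMIs of the cells with endothelial genes, beside 1.197% and 1.28% of endothelial-like cells. They took 0.635% and 0.796% in smooth-muscle-like cells, but 0.0714% and 0.0660% in pericyte-like cells. So the smooth-muscle-like group carried endothelial RNA too, and its part in the comparisons below was not tested except where low-endothelial cells are given. Red cell markers took 0.0158% of the UMIs of pericyte-like cells in WT and 2.61% in KO, and 0.00231% and 0.398% of those of smooth-muscle-like cells.

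Acta2 stepped down over these groups, from 3289 CPM in smooth-muscle-like cells of WT (3141 to 3442) to 1386 in pericyte-like cells (1266 to 1514) and 224 in mural-like cells with endothelial genes (210 to 240). In KO the same groups held 2028, 784 and 85.1. Tagln stood at 2650, 1016 and 259 in WT and at 2115, 612 and 185 in KO. Both genes kept this order in both libraries with intervals that did not overlap. Myh11 did so as well, with 1147, 519 and 97.3 in WT and 893, 428 and 84.0 in KO.

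Pericyte-like cells were thus not without contractile RNA. The log2 ratio of pericyte-like cells over those with endothelial genes was 2.63 and 3.203 for Acta2, 2.42 and 2.35 for Myh11, 2.31 and 2.19 for Tpm2, and 1.76 and 1.72 for Myl9. Mural markers also took a larger share of the UMIs of pericyte-like cells, 2.65% in WT and 3.07% in KO. In the cells with endothelial genes they took 0.881% and 1.08%. The part of this difference in the ratios was not tested. Compared with smooth-muscle-like cells, pericyte-like cells were nearly level for part of the genes when all cells of each group were summed. Mylk stood at 659 in smooth-muscle-like and 595 in pericyte-like cells of WT, and at 619 and 499 in KO. Des stood at 242 and 246 in WT and at 182 and 194 in KO. Myl9 stood at 1163 and 951 in WT and at 889 and 655 in KO. In low-endothelial cells only (13 smooth-muscle-like cells in each library), Mylk, Des and Myl9 were more than 2-fold higher in smooth-muscle-like cells. The log2 ratios over pericyte-like cells were then 1.61 in WT and 1.99 in KO for Mylk, 1.17 and 1.56 for Des, and 1.93 and 2.48 for Myl9.

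The log2 ratio of smooth-muscle-like over pericyte-like cells was 1.25 (1.10 to 1.39) for Acta2 in WT and 1.37 (1.19 to 1.56) in KO. It was 1.38 and 1.79 for Tagln and 1.14 and 1.06 for Myh11. For Tpm2 it was 0.87 and 1.13, for Myl9 0.29 and 0.44, for Mylk 0.15 (−0.10 to 0.40) and 0.31, and for Des −0.02 (−0.42 to 0.39) and −0.09. In WT 3 of 9 tested genes, Acta2, Tagln and Myh11, were more than 2-fold higher in smooth-muscle-like cells, against 12.9% of all genes. In KO there were 5 of 9, with Cnn1 and Tpm2 added, against 12.5% of all genes. Actg2 went the other way, with 0 UMIs in smooth-muscle-like and 7 in pericyte-like cells of WT and 2 and 10 in KO.

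These ratios rest on where the groups are drawn. When only cells with a low endothelial share were kept (13 smooth-muscle-like cells in each library, and 155 and 176 pericyte-like ones), 9 of 9 genes passed 2-fold in both libraries. In these cells Acta2 stood at 13162 CPM in smooth-muscle-like and 1482 in pericyte-like cells of WT, a log2 ratio of 3.15 (2.99 to 3.31), and at 10450 and 805 in KO, a ratio of 3.70 (3.51 to 3.89). Finer divisions of the mural-like cells, added after the data were seen, gave 5 of 9 in WT at resolution 0.5 and 9 of 9 in each library at 0.8. At 0.8 the smooth-muscle-like group kept its size, and further clusters of mural-like cells were counted as pericyte-like.

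**Figure D2:**
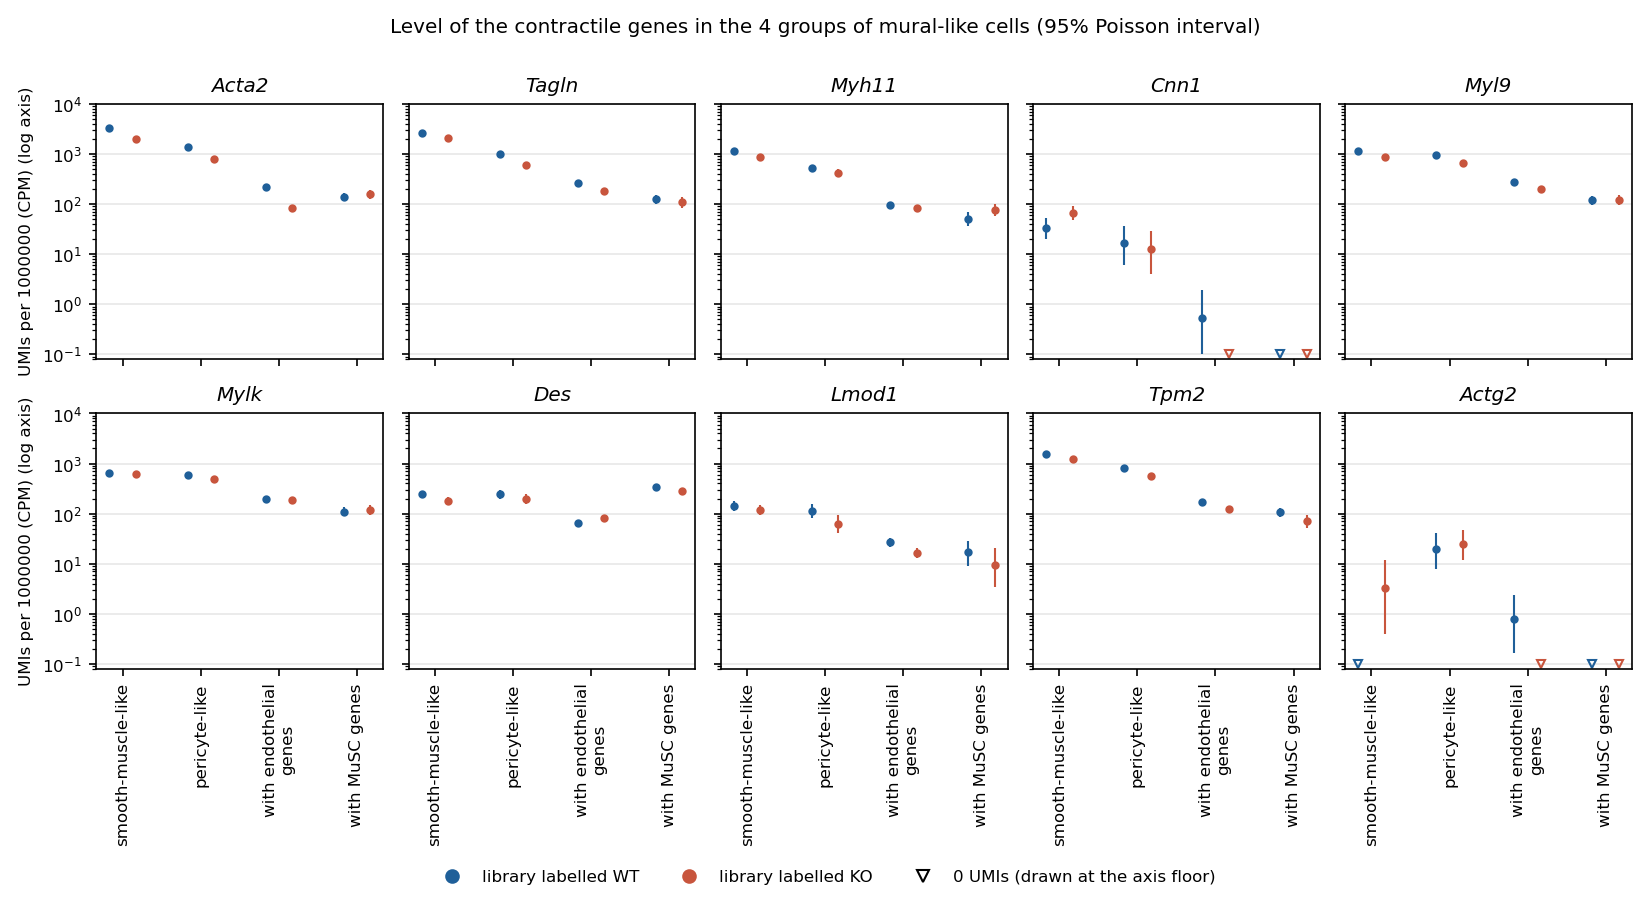
Level of each gene (CPM, log axis) in the 4 groups of mural-like cells, by library, with 95% counting intervals; open triangles mark 0 UMIs. Acta2, Tagln and Myh11 step down from smooth-muscle-like to pericyte-like cells, while Mylk, Des and Myl9 lie close in both when all cells of each group are summed.

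The mural-like cells were next divided by the pericyte markers themselves. Among cells with at least 2000 UMIs, 352 in WT and 412 in KO had a UMI of Kcnj8 or Abcc9, and 59 and 47 had none. Most of the latter were smooth-muscle-like (33 and 28) or mural-like with MuSC genes (19 and 16), and 1 in each library was pericyte-like. The cells with the markers were mostly those with endothelial genes (233 and 280), and 68 and 67 were pericyte-like, so the ratios below largely set smooth-muscle-like cells against mural-like cells with endothelial genes. All 9 genes with enough UMIs were more than 2-fold higher in the cells without the markers, in both libraries, while 5.98% of all genes were in WT and 7.85% in KO. The median log2 ratio of the tested genes was 2.57 and 2.80, against −0.01 and 0.02 over all genes.

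Acta2 stood at 2755 CPM in cells without and 309 in cells with Kcnj8 or Abcc9 in WT, a log2 ratio of 3.16 (3.06 to 3.26). In KO it stood at 2156 and 186, a ratio of 3.53 (3.41 to 3.66). Tagln stood at 2221 and 310 in WT and at 2370 and 240 in KO, with ratios of 2.84 and 3.30. Both genes were thus higher without the markers in both libraries.

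Myh11 stood at 941 without and 127 with the markers in WT and at 915 and 122 in KO, with log2 ratios of 2.89 and 2.91. Tpm2 had ratios of 2.57 and 2.80 (2.53 in KO without the top cell of each side, 1 cell holding 164 of its 513 UMIs), Lmod1 of 1.67 and 2.13, and Des of 1.86 and 1.79. Cnn1 had 19 UMIs in the cells without and 7 in those with the markers in WT, and 29 and 16 in KO, although the cells with the markers were many more. The smallest ratios were those of Mylk, 1.10 (0.90 to 1.28) and 1.37 (1.16 to 1.57), and Myl9, 1.49 and 1.63.

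Because Kcnj8 and Abcc9 are read from few UMIs, the cells were also thinned to 2000 UMIs each before the division. More cells then had neither marker (148 and 139). The log2 ratio of Acta2 was 2.25 in WT and 2.36 in KO, that of Tagln 2.54 and 2.38, and that of Myh11 1.53 and 1.52. Mylk, Myl9 and Des fell under 2-fold, and 5 genes in WT and 4 in KO passed it.

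In another random thinning to 2000 UMIs, by the number of Kcnj8 and Abcc9 UMIs per cell (0, 1 or 2, 3 to 5, and 6 or more), Acta2 stood at 1695, 507, 339 and 271 CPM in WT and at 1173, 180, 281 and 144 in KO. Tagln stood at 1432, 387, 203 and 167 in WT and at 1218, 204, 223 and 88.9 in KO. Most of the fall was between 0 and 1 or 2 UMIs. Myl9 did not fall steadily, with 620, 413, 492 and 646 in WT and 504, 275, 375 and 433 in KO. Nor did Mylk, at 399, 303, 347 and 365 in WT and 402, 204, 353 and 378 in KO. Endothelial markers took 0.748%, 0.784%, 0.692% and 0.201% of the UMIs along the same steps in WT and 0.820%, 0.875%, 0.808% and 0.261% in KO, so the cells with the most pericyte marker UMIs were also those with the least endothelial RNA.

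**Figure D3:**
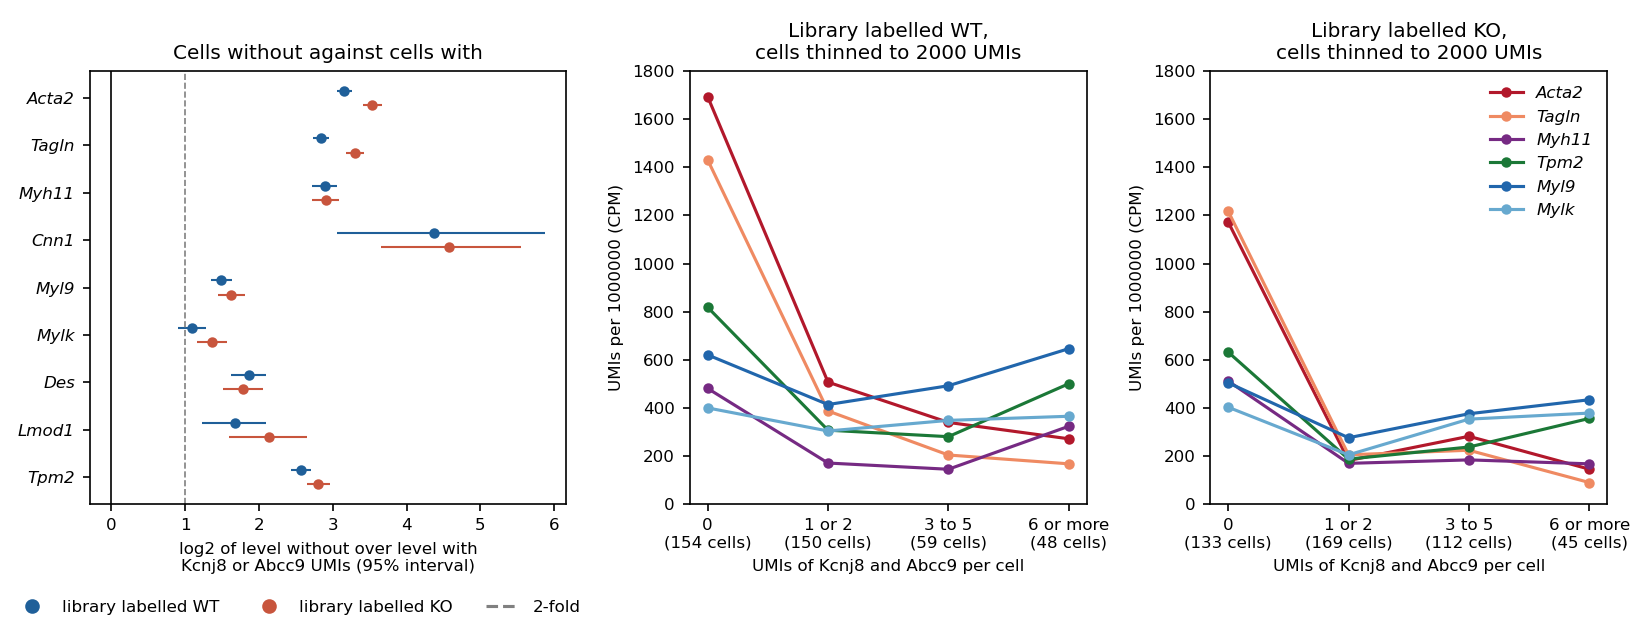
Left, log2 ratio of each gene's level in mural-like cells without over those with UMIs of Kcnj8 or Abcc9, with 95% counting intervals (dashed line, 2-fold). Middle and right, levels of 6 of the genes (CPM, linear axis) by the number of Kcnj8 and Abcc9 UMIs per cell after thinning to 2000 UMIs; Acta2 and Tagln drop after 0, while Myl9 and Mylk dip and rise again.

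Other genes of the apparatus were read beside these. Of 20 further contractile genes, 12 of the 19 with enough UMIs in WT and 14 of 20 in KO were more than 2-fold higher in mural-like than in all other cells, and Kcnma1, a potassium channel, was lower in both. Of all genes, 8.28% in WT and 10.5% in KO were higher in this comparison. Between smooth-muscle-like and pericyte-like cells, 4 of 18 in WT (Ppp1r12b, Sorbs2, Pdlim3 and Mustn1) and 2 of 18 in KO (Sorbs2 and Pdlim3) were higher, and Cacna1c, the L-type calcium channel, was lower. Of all genes, 12.9% in WT and 12.5% in KO were higher between these groups, so the count in KO was near that share. The share of all genes that were lower was not computed, here or for the lists below. The abundant Tpm1, Cald1 and Myl6 did not pass 2-fold. Tpm1, another tropomyosin, had a log2 ratio of 0.10 in WT and 0.31 in KO, Cald1, caldesmon, −0.59 and −0.48, and Myl6, the essential myosin light chain, 0.92 and 0.84. Of 12 vasoactive receptors, none was higher in smooth-muscle-like cells, and 3 of 4 tested in WT (Ednra, Ednrb and Agtr1a) and 5 of 6 in KO (with Adra2a and Ptgir added) were lower. Ednrb, an endothelin receptor, stood at 361 CPM in smooth-muscle-like and 1352 in pericyte-like cells of WT and at 320 and 658 in KO. Agtr1a, the angiotensin receptor, stood at 21.4 and 107 in WT and at 31.2 and 161 in KO.

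Of 16 regulators of the contractile genes, 5 of 15 in WT and 6 of 16 in KO were more than 2-fold higher in mural-like than in all other cells, against 8.28% and 10.5% of all genes. They were Mrtfb, Mef2c, Heyl, Hey2 and Prkg1 in both and Myocd in KO, and Rbpj was lower. Between smooth-muscle-like and pericyte-like cells, 0 of 11 were higher in WT and 1 of 13 in KO (Klf4), while Heyl was lower in both and Rbpj in KO, with median log2 ratios of −0.16 and −0.17. The counts of higher regulators were no larger than the shares of all genes, 12.9% and 12.5%. Myocd, which encodes myocardin and was picked after its values were seen, was under the minimum for a ratio, with 9 UMIs in smooth-muscle-like and 2 in pericyte-like cells of WT and with 16 and 1 in KO. Of 10 cytoplasmic counterparts of the contractile genes, such as Actb and Myh9, none passed 2-fold between cells without and with the pericyte markers in either library, with median log2 ratios of −0.09 and −0.20. Of all genes, 5.98% in WT and 7.85% in KO were higher in that comparison. Between smooth-muscle-like and pericyte-like cells, however, 3 of 9 of these counterparts were higher in WT (Actg1, Myl12b and Cnn3) and 1 of 9 in KO (Actg1), with medians of 0.53 and 0.54. The shares of all genes were 12.9% and 12.5%, so the count in KO was near its share.

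Within the mural-like cells the genes varied together only in part. After thinning each cell to 1000 UMIs, a smooth-muscle-like cell was read with a median of 3 of the 10 genes in WT and 2 in KO, and a pericyte-like cell with 2 in both. Cells in which none of the 10 was read made up 6.78% of smooth-muscle-like cells in WT and 18.3% in KO, and 89.0% and 90.9% of FAP-like cells. Across mural-like cells thinned to 2000 UMIs (411 in WT and 459 in KO), Spearman's correlation between pairs of 8 of the genes ranged from 0.05 to 0.60 in WT and from −0.06 to 0.45 in KO, highest for Acta2 with Tagln in both. These cells share a library, and sparse counts lower such values, so they are descriptions only.

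FAP-like cells (1636 in WT and 2116 in KO) held little contractile RNA. Acta2 stood at 5.84 CPM in WT (4.58 to 7.34) and at 6.38 in KO (5.26 to 7.66), below endothelial-like cells with 11.4 and 9.96. The log2 ratio of FAP-like over mural-like cells was −6.70 in WT and −5.69 in KO. Of the 73 and 114 Acta2 UMIs in FAP-like cells, 49 and 39 were in cells that also held a UMI of a mural marker. Such cells made up 18.2% of all FAP-like cells in WT and 17.8% in KO. The markers for this count were Rgs5, Notch3, Kcnj8, Abcc9 and Myh11, and Myh11 is itself a contractile gene described here. Cells counted through Myh11 alone were not told apart. Tagln stood at 7.52 and 10.9, with 65 of its 194 UMIs in KO in 1 cell. Myl9 and Tpm2, which many cells use, were higher, at 28.6 in both libraries and at 36.5 and 38.3.

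The number of cells that read both Acta2 and Tagln was counted after thinning to 1000 UMIs, as a sign of myofibroblasts. In FAP-like and tendon-like cells together it was 3 of 2070 in WT (0.145%, 0.0299 to 0.423) and 7 of 2499 in KO (0.280%, 0.113 to 0.576). In FAP-like cells alone it was 1 of 1623 in WT (0.0616%) and 1 of 2109 in KO (0.0474%). The T-, B-, NK- and neutrophil-like cells, which should lack both genes, had 0 of 174 in WT (interval up to 2.10%) and 0 of 201 in KO (up to 1.82%). These cells were too few to measure a background as low as the share in FAP-like cells. Among larger types, macrophage-like cells had 1 of 753 in WT (0.133%) and 1 of 915 in KO (0.109%). Endothelial-like cells had 1 of 1244 in WT (0.0804%) and 3 of 1225 in KO (0.245%). The share in FAP-like cells alone was no higher than in either type, so it cannot be told from background at this depth. Cells that read both genes made up 50.8% and 32.4% of smooth-muscle-like cells and 3.29% and 2.87% of MuSC-like cells. Without thinning, 5 FAP-like cells in WT and 6 in KO read both genes, 2 of them in each library with a mural marker of the set above, which includes Myh11.

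Tendon-like cells (456 in WT and 406 in KO), led by Fmod, Tnmd and Chad and otherwise related to fibroblasts, held more. Acta2 stood at 70.3 CPM in WT and 89.7 in KO, a log2 ratio over FAP-like cells of 3.59 (3.23 to 3.97) and 3.81 (3.51 to 4.12). Mylk stood at 146 and 114, with ratios of 3.31 and 3.44. Tagln stood at 60.5 and 106, though 121 of its 340 UMIs in WT were in 1 cell. Myh11 was all but missing from these cells, with 4 UMIs in each library. For each Myh11 UMI there were 98.8 Acta2 UMIs in tendon-like cells of WT (38.3 to 364) and 112 in KO (43.2 to 411), against 2.67 and 1.78 in mural-like cells, so the 2 types did not hold these genes in the same ratio. MuSC-like cells had 131 and 84.8 Acta2 UMIs for each of Myh11.

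More than 2-fold higher in tendon-like than in FAP-like cells were 4 of 7 tested genes in WT (Acta2, Tagln, Mylk and Tpm2), against 6.91% of all genes, and 5 of 7 in KO (with Myl9 added), against 7.92%. Des was more than 2-fold lower in both. Of 13 myofibroblast genes, which encode matrix and matrix-modifying proteins such as periostin (Postn) and tenascin C (Tnc), 9 in each library were more than 2-fold higher in tendon-like cells, with median log2 ratios of 1.46 and 1.495. Fap, on the same list, was more than 2-fold lower in WT. Whether the higher genes mark myofibroblasts or belong to tendon-like cells as such was not tested. Tnc stood at 577 CPM in tendon-like and 18.2 in FAP-like cells of WT, and at 504 and 35.5 in KO. Cells that read both Acta2 and Tagln after thinning made up 0.447% of tendon-like cells in WT (2 of 447) and 1.54% in KO (6 of 390).

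Between the libraries, mural-like cells of KO held less of most contractile genes than those of WT, and the largest difference was in Acta2. Its KO over WT log2 ratio in all mural-like cells was −0.87 (−0.95 to −0.79), from 605 to 330 CPM. It was the only 1 of 10 genes more than 1.5-fold lower, against 5.77% of all genes. Tagln had a ratio of −0.44, Myl9 −0.44, Tpm2 −0.44 and Myh11 −0.29, all with intervals below 0, and Lmod1 had −0.57 (−0.86 to −0.29). Mylk was level at −0.09 (−0.19 to 0.02). Cnn1 passed 1.5-fold upward at 0.59 (−0.13 to 1.33), but 18 of its 46 UMIs in KO were in 1 cell, and without the top cell of each library it was at 0.38, under the fold. The median of the 10 genes was −0.36 and that of all genes 0.04. The pericyte markers went the other way, with 0.46 for Kcnj8 and 0.42 for Abcc9.

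By group, the KO over WT log2 ratio of Acta2 was −0.70 (−0.80 to −0.59) in smooth-muscle-like cells, −0.82 (−1.03 to −0.61) in pericyte-like cells and −1.40 (−1.58 to −1.22) in mural-like cells with endothelial genes. In those with MuSC genes it was 0.15 (−0.26 to 0.55). In smooth-muscle-like cells 1 of 9 tested genes, Acta2, was more than 1.5-fold lower, against 10.9% of all genes, a share near the background. In pericyte-like cells 3 of 8, Acta2, Tagln and Lmod1, were lower, against 13% of all genes. In mural-like cells with endothelial genes 2 of 8, Acta2 and Lmod1, were lower, against 5.68% of all genes. Pericyte-like and smooth-muscle-like cells of KO also held the larger shares of red cell RNA given above, and their part in these ratios was not tested.

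Among cells with little endothelial RNA, the difference in Acta2 depended on the group. In the mural-like cells with a low endothelial share (174 in WT and 197 in KO), Acta2 stood at 3126 CPM in WT and 2281 in KO, a log2 ratio of −0.45 (−0.57 to −0.34), which is under 1.5-fold. Tagln was at −0.07 (−0.19 to 0.05) in the same cells. Taken by group, the low-endothelial smooth-muscle-like cells, 13 in each library, had −0.33 for Acta2 and 0.19 for Tagln. The low-endothelial pericyte-like cells had −0.88 and −0.81, and 5 genes were more than 1.5-fold lower in them. In the cells without Kcnj8 and Abcc9, Acta2 was at −0.35 (−0.47 to −0.24) and Tagln at 0.09 (−0.03 to 0.21). Fewer cells with much Acta2 and less Acta2 per cell cannot be told apart in summed levels. The share of cells with an Acta2 UMI after thinning to 1000 UMIs was 26.0% in mural-like cells of WT (22.0% to 30.3%) and 15.4% in KO (12.4% to 18.8%), while that for Myh11 was 20.04% and 19.8%.

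Outside the mural cells there was no shared direction. In FAP-like cells 1 of 7 tested genes, Myh11, passed 1.5-fold, against 13.9% of all genes, at −1.85, but 28 of its 48 UMIs in WT were in 1 cell and the ratio without the top cell of each library was −0.75. Acta2 was at 0.13 (−0.31 to 0.57) and Myl9 at −0.00 in FAP-like cells. Of the 13 myofibroblast genes there, 3 passed 1.5-fold, Postn at 0.77, Tnc at 0.97 and Timp1, all higher in KO, beside the same 13.9% of all genes. In that list 10 of 13 were above 0, with a median of 0.34, and whether this marks myofibroblasts was not tested. In tendon-like cells 3 of 6 genes, Tagln, Myl9 and Des, were higher in KO, against 15.9% of all genes in either direction. In MuSC-like cells 1 of 6, Tagln, passed 1.5-fold, against 27.9% of all genes, and Acta2 was at −0.55. In endothelial-like cells it was 1 of 8, Tpm2, at −0.60, against 11.6% of all genes.

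**Figure D4:**
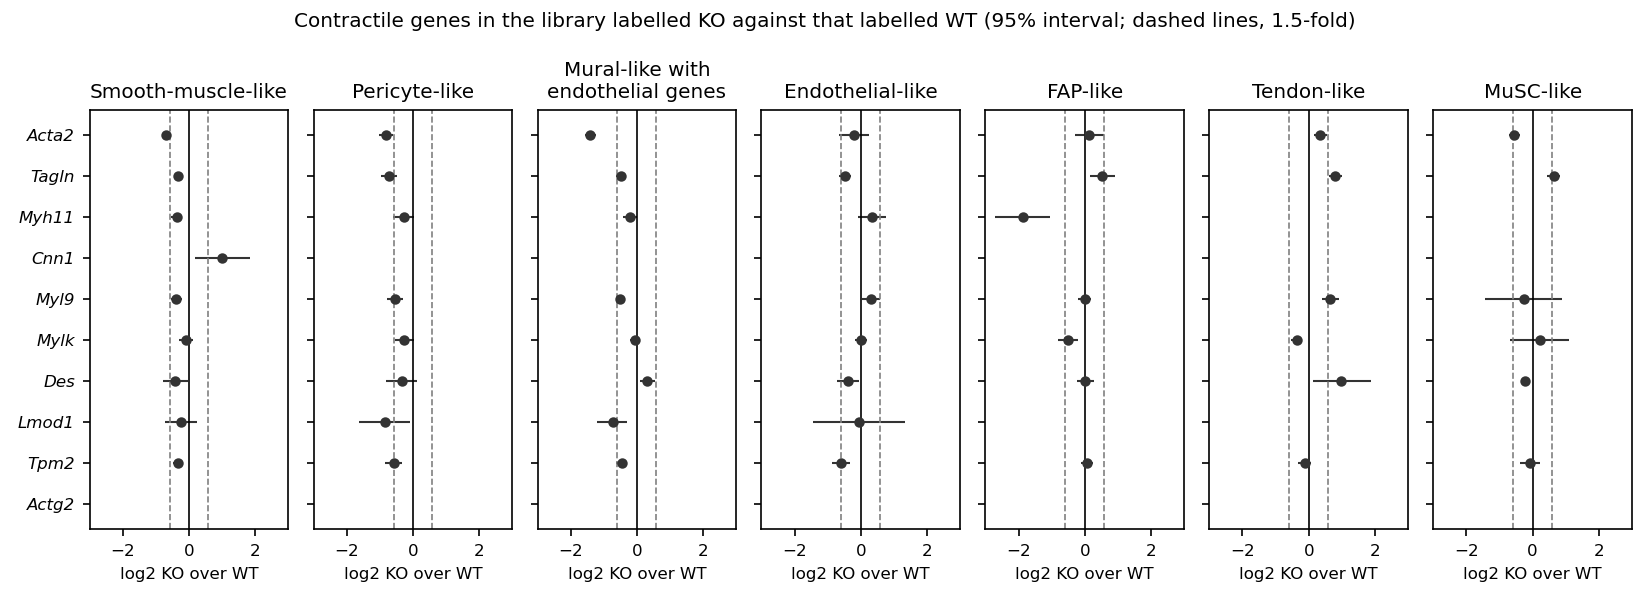
Log2 ratio of each gene's level, KO library relative to WT library, in 7 groups of cells, with 95% counting intervals (dashed lines, 1.5-fold); only genes with at least 20 UMIs in the group are drawn. Acta2 lies below 0 in the 3 mural groups shown and in MuSC-like cells, and above 0 in tendon-like cells.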

How the data were processed

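Cells from injured gastrocnemius muscle were captured with a 5′ single-cell kit (10x Genomics, v2 chemistry), 1 library per genotype. The authors aligned the reads to mm10 with Cell Ranger (version 2.1.1 in the submitters' processing notes), removed doublets with DoubletFinder and cells with more than 10% mitochondrial reads, and deposited 1 table of natural log values, ln(1 + 10000 × UMIs of a gene / UMIs of the cell), for 19169 genes in 13432 cells. It lists 0 mitochondrial genes, and 0 columns belong to other samples. The study's methods also state a larger number of cells kept than the table holds. Barcode suffixes 1 (KO) and 2 (WT) gave the library of each cell.

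Whole UMIs were recovered from the log values (largest distance from a whole number 0.434 UMI) and depth was 385 to 83203 UMIs per cell in WT and 420 to 79159 in KO. Cells were clustered by Louvain on a shared-neighbour graph (igraph 0.11.9 and scikit-learn 1.9.0; 2000 variable genes without the 10 genes, 30 principal components, libraries integrated by the steps of Harmony, 20 neighbors, resolution 0.8) and named from marker lists. Naming rules, the resolution of 0.3 for the mural groups and the looser CArG form were set after the clusters or the exact search were seen. Mural-like cells with a low endothelial share each had under 25% of the median endothelial share of the endothelial-like cells of their library. Scrublet calls (scanpy 1.11.5), few after the authors' own removal, were used only as an alternative.

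UMIs were summed per group and library, as counts per 1000000 UMIs (CPM) with exact Poisson intervals. Ratios carry exact binomial intervals. Genes needed 20 UMIs, and were called past 2-fold between groups or 1.5-fold between libraries. With 1 library per genotype, no test was possible. On simulated counts for the mural-like comparison of libraries, 5.57% of unchanged genes passed 1.5-fold. For smooth-muscle-like cells this share was 16.2%. How often a difference of the size reported here would be called was not tested. All 10 genes are named, and other genes are named as the most abundant of their list or, where a count was small, after their values were seen. The 10 genes, lists and tests were chosen with earlier results of these data known. Alternatives included thinning, cell means, other resolutions and leaving out the top cell. Python 3.11.15, numpy 2.4.6 and scipy 1.17.1 were used.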

Additional observations from a re-analysis of the deposited data

Results flagged for a closer look

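A few genes moved between the libraries in another cell type against their direction in mural-like cells. None of these differences between cell types was tested. In tendon-like cells the log2 ratio of KO over WT was 0.35 for Acta2 (0.15 to 0.55), with −0.87 in mural-like cells, and 0.21 without the top cell of each library. Tagln was at 0.81 in tendon-like cells, with −0.44 in mural-like cells, and at 1.32 without the top cells. Myl9 was at 0.66 there, with −0.44 in mural-like cells. Des was at 0.97 in tendon-like cells, from 19 and 33 UMIs, with −0.18 in mural-like cells. Tagln was also higher in MuSC-like cells of KO, at 0.64. The other such values rest on few UMIs: in Schwann-like cells 1.47 for Acta2 (8 and 19 UMIs) and 1.09 for Des (17 and 31 UMIs), and in macrophage-like cells 0.95 for Myh11 (18 and 42 UMIs), which was 0.11 without the top cells.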

How the results depend on the processing

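No paired analysis was possible because there is 1 library per genotype. Of 653 values of single genes under alternatives, 485 stayed within the reported interval, and 0 called values turned their sign. Between the libraries, the 2-fold call and other minimums of UMIs leave the value of a gene unchanged, so these count among the 485. So do the values of smooth-muscle-like and pericyte-like cells with doublet calls left out, because 0 of these cells were called doublets. Some uncalled values did turn their sign. Among them were Tagln, Mylk, Des, Lmod1 and Tpm2 between the libraries in low-endothelial smooth-muscle-like cells. Acta2 between the libraries (KO over WT, log2) ranged from −0.96 to −0.45 in mural-like cells and from −0.996 to −0.33 in smooth-muscle-like cells. The causes of the shifts below were not tested. Mural resolutions 0.5 and 0.8, resolution 1.2 for the libraries, the 2 named groups only, and leaving out cells with MuSC genes or the top cell were chosen after seeing the data.

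Without over with Kcnj8 and Abcc9, thinning to 2000 UMIs left 5 genes past 2-fold in WT and 4 in KO. The median log2 ratio in WT became 1.41 after thinning, 2.09 with a higher minimum of UMIs per cell, 3.13 in low-endothelial cells, 2.72 as a mean over cells, 3.35 without cells with MuSC genes, 2.32 in smooth-muscle-like and pericyte-like cells only, and 2.10 without the top cell. In KO it became 1.25 after thinning, 3.04 with 2 or more marker UMIs required, 2.08 in low-endothelial cells, 2.58 as a mean over cells, 3.80 without cells with MuSC genes, 2.33 in both named groups only, and 2.23 without the top cell.

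Smooth-muscle-like over pericyte-like, the count past 2-fold in WT became 9 in low-endothelial cells (median 2.92), 5 as a mean over cells (1.35), 5 at mural resolution 0.5 (1.202) and 9 at 0.8 (2.67). In KO it became 9 in low-endothelial cells (median 3.11) and 9 at resolution 0.8 (2.72). Cells with both Acta2 and Tagln among FAP-like and tendon-like cells made up 1.77% in WT and 2.26% in KO without thinning, and 0.0474% in KO without tendon-like cells.

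Between the libraries, the count lower in mural-like cells became 2 as a mean over cells, after thinning, after scaling by the median of all genes, without doublet calls, without the top cell, without cells with MuSC genes and at resolution 1.2. It became 0 at 2-fold and 0 in low-endothelial cells (median −0.19). In smooth-muscle-like cells it became 2 as a mean over cells, 3 after thinning, 0 at 2-fold and 0 in low-endothelial cells (median 0.077). In pericyte-like cells it became 0 after thinning, 0 at 2-fold and 5 in low-endothelial cells. In mural-like cells with endothelial genes it became 4 after thinning and 1 at 2-fold. Depth limits Cnn1 and Actg2, which had under 50 UMIs in mural-like cells of either library.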

Other observations

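Over 16 cell types in both libraries (32 points), the genes whose log2 levels (with 10 CPM added) were most like the mean of 8 contractile genes with at least 100 UMIs, each scaled to unit spread, were Akap6, an anchor for protein kinase A (Pearson's r = 0.95), Abcc9 (0.89), Cox4i2 (0.87), Casq2, a calcium-storing protein (0.86), and Rgs4 (0.85). Points of one library share its depth and free RNA.

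Between smooth-muscle-like and pericyte-like cells, genes with among the highest log2 ratios in both libraries were Alpl, alkaline phosphatase (6.30 in WT and 5.65 in KO), and Entpd1, an ectonucleotidase (5.86 and 5.61). H2-Q7, Stmn2 and Icam2 came next, Icam2 with ratios of 5.08 and 5.15. Among the lowest were Ccl11, a chemokine (−5.53 and −6.93), Kcnj8 (−4.12 and −3.31) and Postn (−3.54 and −3.66). Kcnj8 was among the markers that named the pericyte-like group, so its low ratio is no separate evidence for that name. Alpl was also among the leading genes of an endothelial-like cluster at resolution 1.2. Smooth-muscle-like cells carried the higher endothelial share given above, and the part of that share in these ratios was not tested.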
